A study of Mus musculus with 18 samples.

Results

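The comparison described here set mouse embryonic stem cells (mESCs) on soft gels that tether matrix strongly against the same cells on soft gels that tether it weakly, high minus low. Its members were the 6 libraries, of 18 in the series, whose condition label was Soft80 (3 libraries) or Soft16 (3 libraries). The series crossed 2 gel stiffnesses, soft (about 750 Pa) and stiff (about 160 kPa), with 3 concentrations of the co-factor AHA, 16 mM (low), 48 mM (mid) and 80 mM (high), and asked how stiffness and adhesiveness each change the transcriptome. All groups held E14 mESCs, an established wild-type line of 129 background, kept on fibronectin-coated StemBond hydrogels in serum and LIF, a cytokine that holds these cells in self-renewal. RNA was collected after 24 h. The line was a single line and no group was on plastic, so the gels can be compared only with one another. The labels did not say that the 3 libraries of a group came from separate cultures, so p-values measure only the spread between these libraries.

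StemBond gels are polyacrylamide gels in which AHA supplies the groups that bind matrix protein, so that its concentration sets how firmly fibronectin is held to the gel. The study found attachment of mESCs weaker on low AHA gels than on mid or high AHA gels. How far attachment bears on the values below was not tested. Cells grip bound fibronectin through integrins, which connect through focal adhesions to the actin cytoskeleton. When actin assembles, the co-activator MRTF is freed to enter the nucleus and join SRF (serum response factor), whose known targets include genes of actin filaments and of the proteins that bind them. YAP and its partner TEAD are a second known route from adhesion and tension to transcription.

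Gene counts in the 6 libraries ranged from 7205969 to 8615930. Spike-in (ERCC) RNA took 1.37% of counts in Soft80 replicate 1 (95% Wilson interval 1.36 to 1.38%, counting error only), against 0.607 to 0.725% in the other 17 libraries of the series. The study set aside libraries with a high ERCC share, so values below come from a fit of the other 17 libraries, and the value with all 18 is given for the called genes named and for the gene lists. Soft80 replicate 2 had the highest share of counts in protein-coding genes among the 6 (72.7%, against 68.4 to 69.1%). Levels are in CPM, which are counts put on one library size by TMM scaling of the protein-coding genes that were tested, and every fold change is on the log2 scale with its standard error (SE). As these are bulk libraries, fewer cells of a type and less RNA per cell cannot be told apart.

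High AHA on soft gels gave a small set of small changes, most of them higher. Of 13438 protein-coding genes tested, 34 (0.253%) had an adjusted p under 0.05 (edgeR's quasi-likelihood test with Benjamini-Hochberg adjustment), and 1144 had an unadjusted p under 0.05. The called genes were 29 that rose (0.216% of those tested) and 5 that fell (0.0372%). With Soft80 replicate 1 kept, 45 of 13223 genes were called (0.34%), of which 30 rose and 15 fell, and 24 genes (0.179% of the 13438) were called with and without that library. Those 24 were 70.6% of the first set and 53.3% of the second. The Soft80 and Soft16 ranges were apart for all of the 34 with 2 Soft80 libraries and for 24 of them with all 3, beside 24.7% and 14.2% of all tested genes (12.7% and 7.29% with Soft80 above, 11.9% and 6.95% with it below). The median size of a called change was 0.31, and the called genes were well expressed, with a median of 155 CPM against 25.0 CPM over all tested genes. The median SE over all tested genes was 0.16, so changes of this size could pass only in genes with a smaller SE. Fits below that leave out Soft80 replicate 2 or 3 start from the 17 libraries. They hold 1 high AHA library and take its spread from the other groups. The number called depended on single libraries: without Soft80 replicate 2 it was 2, without Soft80 replicate 3 it was 69, and without Soft16 replicate 1 it was 8. Of the 34 genes, 7 were still called without Soft16 replicate 1 (Cald1, Ift57, Krt19, Rtl1, Sfn, Tagln and Vim), 22 without Soft16 replicate 2, 26 without Soft16 replicate 3 and 27 without Soft80 replicate 3. The 2 genes that were still called without Soft80 replicate 2 were Cald1 and Vim, and these were also the ones called under all 15 alternative analyses.

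**Figure D1:**
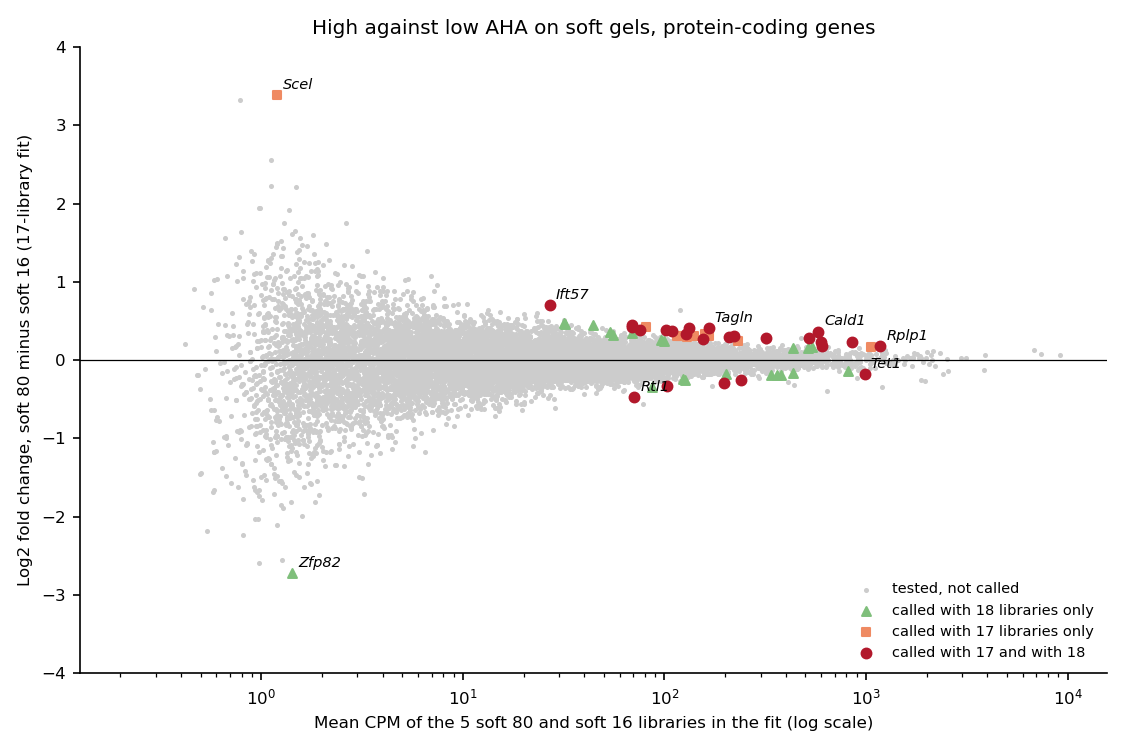
Log2 fold change of high minus low AHA on soft gels (17 libraries) against mean CPM of the Soft80 and Soft16 libraries in the fit, on a log axis, 1 point per protein-coding gene, with colours for genes called with 17 libraries, with 18 or with both. Most called genes lie to the right of the bulk of the cloud at sizes well under 1, and the coloured points far from 0 are the low-count genes Scel, called with 17 libraries only, and Zfp82, called with 18 only.

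Proteins that decorate actin filaments held the gene with the lowest p. Cald1 encodes caldesmon, which binds actin and tropomyosin and regulates access of myosin, and lies at chr6:34598500-34775473 (GRCm38, plus strand). Its level was 452, 519 and 537 CPM in the low AHA libraries and 568, 649 and 649 CPM in high AHA replicates 1 to 3. The groups did not overlap, and replicate 1 stood between the low AHA libraries and the other high AHA libraries. Cald1 rose by 0.37 ± 0.05 (adjusted p = 2.4e-07), or 0.30 with replicate 1 kept (adjusted p = 0.0018), and its largest adjusted p over the 15 alternatives was 0.017.

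Tagln, which encodes transgelin (SM22), an actin-binding protein best known from smooth muscle, lies at chr9:45929619-45936058 on the minus strand. It was at 132, 146 and 148 CPM on low AHA and at 169, 196 and 181 CPM on high AHA, with no overlap. The fold change was 0.41 ± 0.07 (adjusted p = 2.8e-05), and 0.36 with all 18 libraries (adjusted p = 0.00010). Of its exon bases, 67.9% lie opposite exons of another gene, and the use of strand in counting was not stated, so part of its count may belong to that gene. Without Soft80 replicate 2 its adjusted p was 0.096.

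Tpm1, which encodes the alpha-tropomyosin that runs along the actin filament (chr9:67022590-67049406, minus strand), was at 741, 785 and 831 CPM on low AHA and at 821, 937 and 908 CPM on high AHA. Replicate 1 of the high AHA group fell inside the low AHA range, and the other pair lay above it. Tpm1 rose by 0.23 ± 0.04 (adjusted p = 0.00028), and by 0.18 with replicate 1 kept (adjusted p = 0.0086). It lost its call when Soft80 replicate 2 was set aside in place of replicate 1 (adjusted p = 0.19). Tpm2, a second tropomyosin gene, was at 89.2 to 97.9 CPM on low AHA and 102 to 113 CPM on high AHA without overlap, and its difference of 0.27 ± 0.08 missed the threshold (adjusted p = 0.14).

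Over a list of 13 tropomyosin, calponin, transgelin and caldesmon genes, all tested, 3 rose, none fell and 11 were on the higher side (12 with 18 libraries). Their median log2 fold change was 0.21 with 17 libraries and 0.13 with 18, beside -0.0007 over all tested genes, 49.8% of which were on the higher side. Without Soft80 replicate 2 the median was 0.13, and the lowest over the alternatives was 0.11, when Soft80 replicate 2 was set aside in place of replicate 1.

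Acta2 encodes smooth muscle alpha-actin, a monomer of the filament itself and a standard SRF target (chr19:34241090-34255590, minus strand). It stood at 85.3, 95.5 and 103 CPM on low AHA and at 113, 123 and 124 CPM on high AHA. These ranges did not overlap, with replicate 1 the lowest of the high AHA libraries. Acta2 rose by 0.38 ± 0.08 (adjusted p = 0.0034), and by 0.34 with 18 libraries (adjusted p = 0.0042), while without Soft16 replicate 1 its adjusted p was 0.16. It was the sole call among 22 genes of actin and its turnover, of which 15 were on the higher side with a median of 0.037. With 18 libraries 12 were on the higher side and the median was 0.0042, and the sign of the median changed in 2 of 15 alternatives. It was 0.022 without Soft16 replicate 2 and -0.00077 without Soft80 replicate 2. In that list the severing protein Gsn (0.23 ± 0.09), Arpc1b, a subunit of the Arp2/3 complex that nucleates branched filaments (-0.27 ± 0.11), and the sequestering protein Tmsb4x (0.20 ± 0.09) had the next lowest p and did not pass. Leaving out Soft80 replicate 3 put Gsn at 0.06 and Arpc1b at -0.52, where Arpc1b was called (adjusted p = 0.033), and leaving out Soft80 replicate 2 put them at 0.39 and -0.04. Gsn was at 0.14 without Soft16 replicate 1 and at 0.36 without Soft16 replicate 2.

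Dbn1, which encodes drebrin, a side-binding actin protein, was at 110 to 120 CPM on low AHA and 136 to 150 CPM on high AHA. The groups were apart with every high AHA library counted, and Dbn1 rose by 0.33 ± 0.07 (adjusted p = 0.007; with 18 libraries 0.33, adjusted p = 0.0018). Phldb2, which encodes LL5-beta, a protein that anchors microtubule ends near adhesions, went from 72.4 to 97.9 CPM on low AHA to 98.4 to 119 CPM on high AHA, with replicate 1 barely above the highest low AHA library. It rose by 0.38 ± 0.08 (adjusted p = 0.0056; with 18 libraries 0.31, adjusted p = 0.027). Without Soft80 replicate 2, neither gene passed (adjusted p = 0.48 for Dbn1 and 0.36 for Phldb2).

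Non-muscle myosins and crosslinkers of actin did not reach the threshold in edgeR with 17 or 18 libraries. Myh10, non-muscle myosin IIB, differed by 0.17 ± 0.04 (adjusted p = 0.063) and was called by DESeq2 and, by edgeR, without Soft16 replicate 2 (0.21, adjusted p = 0.013), while Myh9, non-muscle myosin IIA, differed by 0.09 ± 0.04 (adjusted p = 0.36; 0.06 without Soft80 replicate 3). Among 17 crosslinkers 16 were on the higher side with a median of 0.076 (12 and 0.042 with 18 libraries; 0.044 without Soft16 replicate 1, and at the lowest 0.012 over the alternatives), and none was called by edgeR with 17 or 18 libraries or by DESeq2 (5 had an unadjusted p under 0.05). Palld (palladin) was at 0.32 ± 0.08 (adjusted p = 0.061; called in 1 of 15 alternatives, with genes of at least 2 counts, adjusted p = 0.048), Csrp1 at 0.21 ± 0.06 (adjusted p = 0.15), Synpo2, synaptopodin 2, on the lower side at -0.74 ± 0.27 (adjusted p = 0.34) and Actn1, alpha-actinin, at 0.11 ± 0.04 (adjusted p = 0.38).

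**Figure D2:**
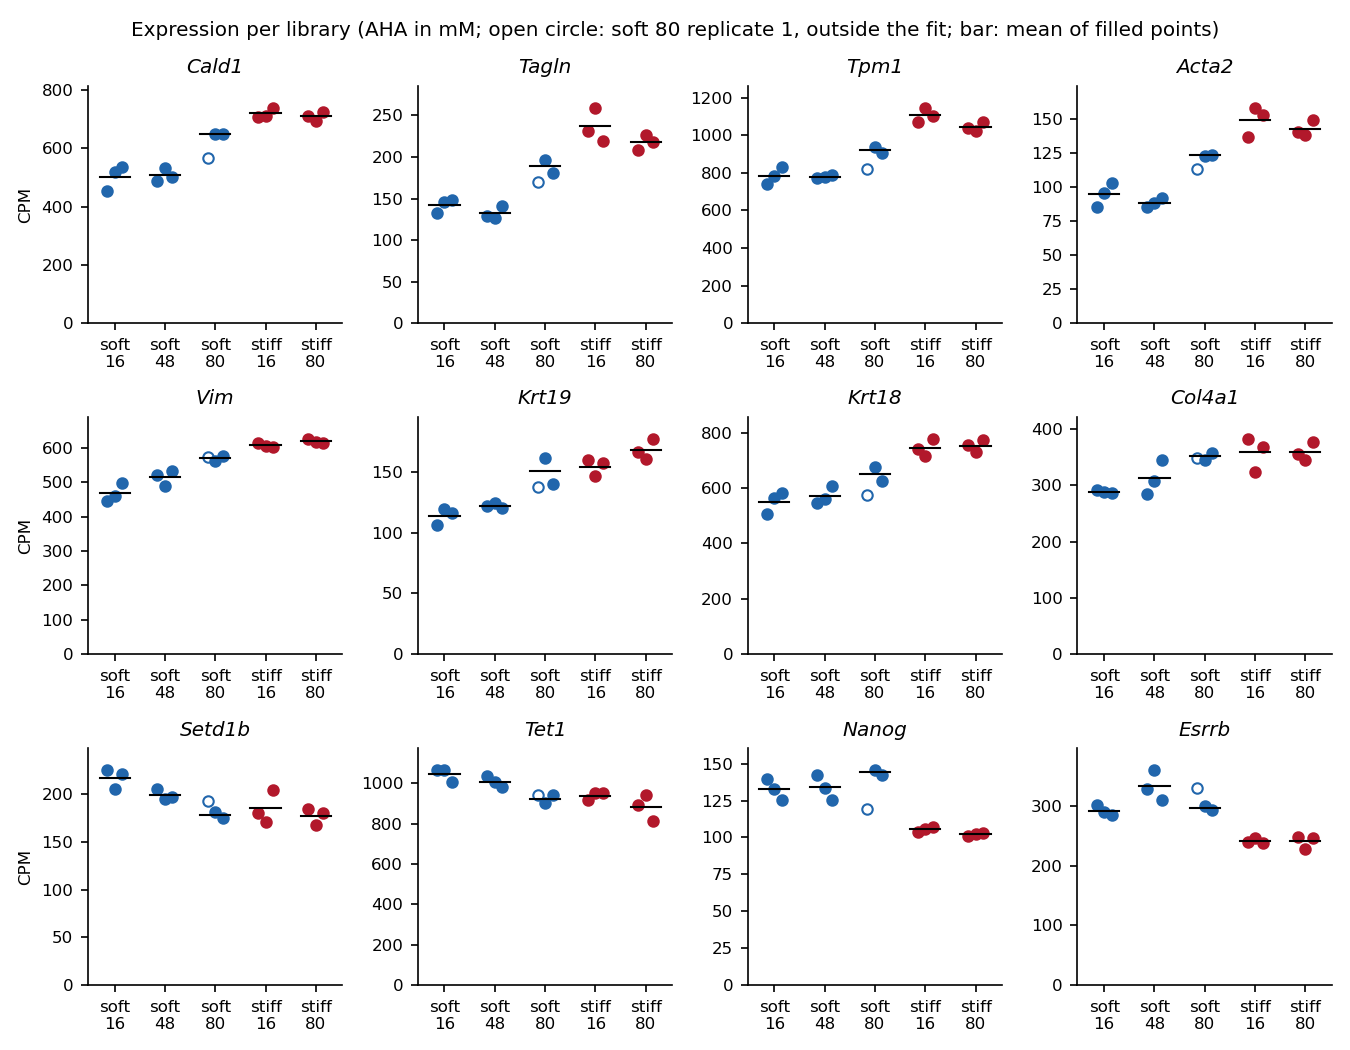
CPM per library for 12 genes, by gel and AHA concentration (mM), with soft gels in blue, stiff gels in red, Soft80 replicate 1 as an open circle and bars at the mean of the filled points. Cald1, Tagln, Acta2, Vim and Krt19 have their soft 80 libraries above all soft 16 libraries, Setd1b and Tet1 have them below, Nanog overlaps once replicate 1 is counted, and Esrrb overlaps with or without it.

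Promoter sequence was compared for the genes that rose together. The RefSeq promoter table (GRCm38.p6, windows of 300 bases, from 250 before to 50 after a start) matched 22 of the 29 genes that rose. Tagln was among those without a window, so its promoter was not searched. The TEAD core motif GGAATG, searched on both strands, was in 4 of the 22 (18.2%): Acta2, Anxa1, Cald1 and Tpm1. It was in 14.4% of the 10516 tested genes with a window and in 16.6% of all 27025 genes in the promoter table. The AP-1 motif TGANTCA was in 4 of the 22 (18.2%), Cald1, Igfbp2, Scel and Zyx, against 6% of tested genes and 8.97% of all genes in the promoter table. The CArG box, the SRF motif, was searched only in the strict form CCWWWWWWGG, where W is A or T. That form was in none of the 22, in 1.56% of tested genes and in 1.81% of all genes in the promoter table. The Acta2 window held ccctatatgg and ccttgtttgg, which differ from this form within the A or T run and were not counted. Of 22 genes with a window in the SRF list described below, 8 held the strict form (36.4%). These are matches of letters in short windows, and no match says only that the letters are not there. Stretches are shown for Cald1, Tpm1 and Acta2, which encode actin and proteins that bind its filaments. Other called genes, Vim among them, had a lower p than Tpm1 and Acta2. Each stretch holds a match and is on the gene's strand with the motif in capitals. The capitals mark the AP-1 motif at the second start of Cald1 and GGAATG in the others. None of these matches overlapped a match of another of the 3 motifs.
Cald1 at its upstream start, chr6:34598321-34598386, plus strand: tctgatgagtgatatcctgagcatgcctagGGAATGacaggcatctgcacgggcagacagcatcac
Cald1 at a second start, chr6:34709217-34709283, plus strand: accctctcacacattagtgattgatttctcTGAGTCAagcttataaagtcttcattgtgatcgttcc
Tpm1, chr9:67049234-67049299, minus strand: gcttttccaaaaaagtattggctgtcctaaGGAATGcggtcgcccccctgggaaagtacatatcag
Acta2, chr19:34255484-34255549, minus strand: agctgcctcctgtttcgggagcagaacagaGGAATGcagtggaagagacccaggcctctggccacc

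Intermediate filament genes held 4 of the calls. Vim encodes vimentin, the filament protein of mesenchymal and many cultured cells (chr2:13573927-13582826, plus strand). It was at 447, 461 and 498 CPM on low AHA and at 574, 564 and 577 CPM on high AHA. All 3 high AHA libraries lay within a narrow band above the low AHA range, replicate 1 included. Vim rose by 0.28 ± 0.05 (adjusted p = 3.8e-05) and by 0.29 with 18 libraries (adjusted p = 1.5e-06), and its adjusted p was at most 0.010 over the 15 alternatives.

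Krt19 and Krt18 encode keratins of simple epithelia, which pair with type II keratins such as Krt8. Krt19 (chr11:100140810-100148665, minus strand) was at 106, 120 and 117 CPM on low AHA and at 138, 162 and 140 CPM on high AHA, with no overlap. It rose by 0.41 ± 0.07 (adjusted p = 0.00015; with 18 libraries 0.36, adjusted p = 0.00032), and only without Soft80 replicate 2, of the 15 alternatives, was it not called (adjusted p = 0.31). Krt18 (chr15:102028180-102032027, plus strand) was at 505, 564 and 583 CPM on low AHA and at 575, 674 and 625 CPM on high AHA, where replicate 1 overlapped the low AHA libraries. It rose by 0.24 ± 0.05 (adjusted p = 0.0018; with 18 libraries 0.18, adjusted p = 0.040), and was not called without Soft80 replicate 2 (adjusted p = 0.36).

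Nes, which encodes nestin, was called with 17 libraries alone (0.25 ± 0.06, adjusted p = 0.011; with 18 libraries 0.18, adjusted p = 0.12). Its high AHA replicate 1, at 215 CPM, lay among the low AHA libraries at 194 to 221 CPM, and the other high AHA libraries were at 250 and 252 CPM. Of 14 intermediate filament and lamin genes, 13 were tested, 4 rose, none fell and 11 were on the higher side (3 rose and 9 were on the higher side with 18). The list's median was 0.16 with 17 and with 18 libraries, and 0.093 without Soft80 replicate 3.

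Matrix and adhesion genes held fewer calls. Col4a1, a chain of the type IV collagen of basement membranes (chr8:11198423-11312826, minus strand), was at 292, 288 and 287 CPM on low AHA and at 349, 346 and 357 CPM on high AHA. The gap between the groups was wider than the range within either. Col4a1 rose by 0.28 ± 0.06 (adjusted p = 0.007; with 18 libraries 0.28, adjusted p = 0.0015). It was nevertheless not called in any of the 5 fits that left out 1 library, where its fold change was 0.26 to 0.30 and its adjusted p at most 0.13. Its partner chain Col4a2 differed by 0.22 ± 0.07 (adjusted p = 0.17).

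Serpinh1, the collagen chaperone HSP47, passed with 17 libraries (0.31 ± 0.08, adjusted p = 0.042) and missed with 18 (0.20, adjusted p = 0.42), and replicate 1 at 99.4 CPM lay inside the low AHA range of 87.7 to 114 CPM. Without Soft80 replicate 2 it was at 0.19 (adjusted p = 0.79). Lox, the collagen cross-linking enzyme, had 1.2 to 2.26 CPM on low AHA and 2.43 to 4.93 CPM on high AHA, a difference of 1.39 ± 0.42 at low counts that was not called (adjusted p = 0.15). In a list of 24 matrix genes, 2 rose, none fell and 19 were on the higher side, with a median of 0.13 (with 18 libraries 1 rose, 18 were on the higher side and the median was 0.14). Without Soft80 replicate 3 the median was 0.078.

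Zyx encodes zyxin, a focal adhesion protein recruited under tension, and was the one call among 24 tested focal adhesion genes (18 on the higher side, median 0.089; with 18 libraries also 18, median 0.066). It was at 136 to 145 CPM on low AHA, and at 143, 181 and 172 CPM on high AHA. Zyx rose by 0.33 ± 0.07 with 17 libraries (adjusted p = 0.007) and was not called with 18 (0.23, adjusted p = 0.33). Tns1, tensin 1, showed the opposite dependence, with 35.1 to 38.3 CPM on low AHA and 48.3 to 51.9 CPM on high AHA in all 3 libraries, and was called with 18 libraries (0.43, adjusted p = 0.048) but not with 17 (0.45 ± 0.12, adjusted p = 0.082). Of 13 tested integrin genes 11 were on the higher side with a median of 0.072 (10 and 0.067 with 18 libraries), which leaving out 1 library moved between 0.032 (Soft80 replicate 3) and 0.14 (Soft16 replicate 3). None was called by edgeR with 17 or 18 libraries or by DESeq2 (1 had an unadjusted p under 0.05), and Itgb1, the beta chain of the main fibronectin receptor, came nearest at 0.19 ± 0.05 (adjusted p = 0.064).

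Lists of known targets of the mechanical pathways were described in the same way, although their members overlap the groups above. Of 25 SRF and MRTF targets, 5 rose with 17 libraries (Acta2, Cald1, Tagln, Tpm1 and Zyx), 4 of them with 18, and 21 were on the higher side with a median of 0.11 (20 and 0.088 with 18). That median was 0.17 without Soft16 replicate 2 and 0.20 without Soft80 replicate 3. Of 21 tested YAP targets, 1 rose with 17 libraries and 16 were on the higher side, also with a median of 0.11 (15 and 0.099 with 18), which was 0.044 without Soft16 replicate 1. That call was Igfbp3, an IGF-binding protein, at 116 to 135 CPM on low AHA and 133, 167 and 143 CPM on high AHA (0.31 ± 0.07, adjusted p = 0.011; with 18 libraries 0.24, adjusted p = 0.086), and without Soft80 replicate 2 it was at 0.18 (adjusted p = 0.74). Myof, which encodes the membrane-repair protein myoferlin, was called with 18 libraries in its place (0.33, adjusted p = 0.013; with 17 libraries 0.25 ± 0.08, adjusted p = 0.21), and its highest library was replicate 1 at 122 CPM. The tissue factor gene F3 and Tgfb2 had differences of 0.41 ± 0.13 and 0.42 ± 0.15 that did not pass. F3 was at 0.08 without Soft80 replicate 2 and at 0.66 without Soft80 replicate 3, where it was called (adjusted p = 0.0085), and Tgfb2 was at 0.25 without Soft80 replicate 3.

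**Figure D3:**
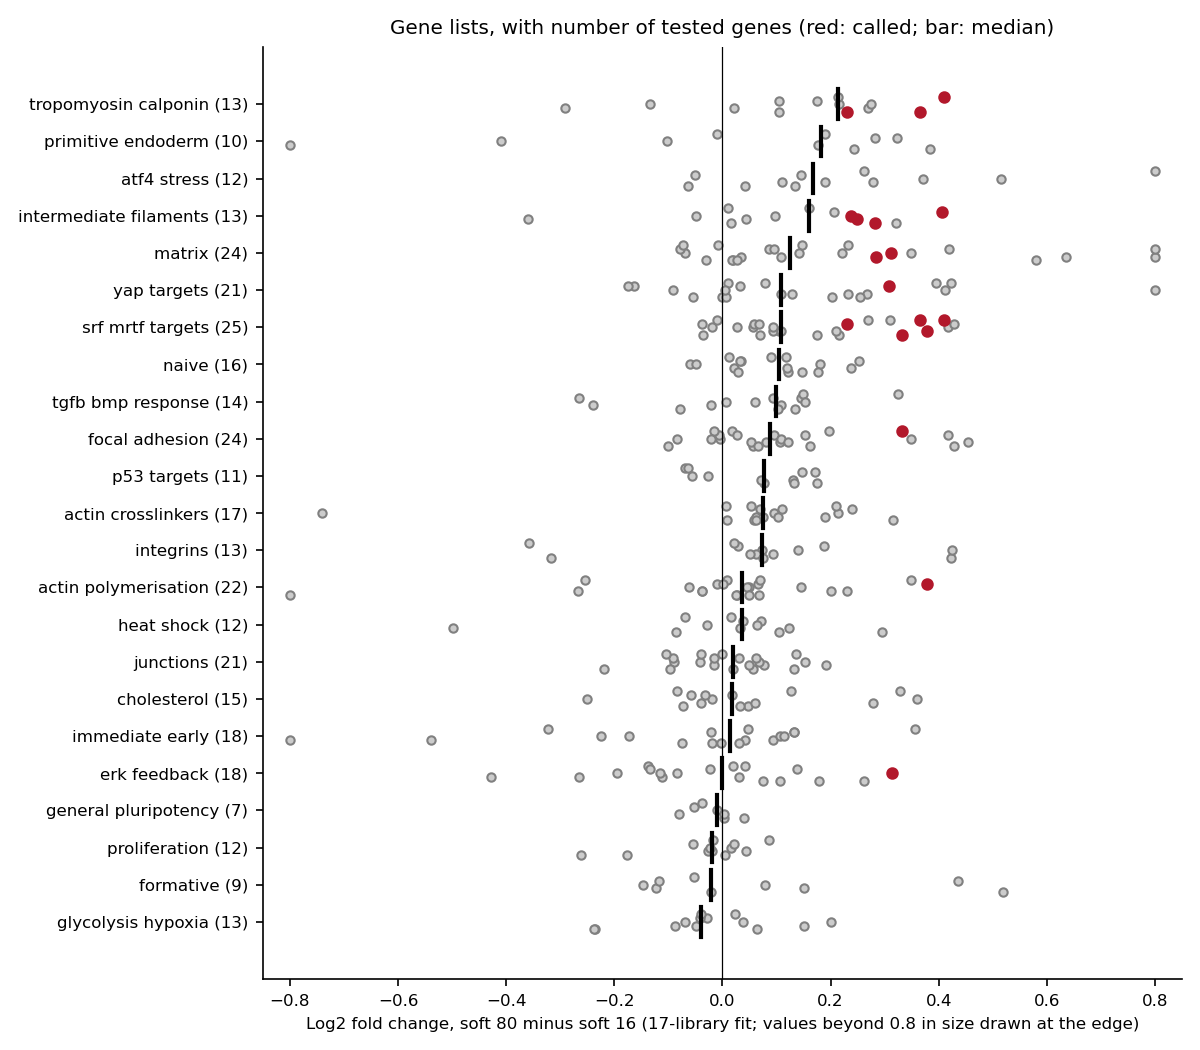
Log2 fold change of high minus low AHA on soft gels for each tested gene of the lists drawn, each with at least 7 tested genes, with called genes in red and a bar at each list's median. Called genes sit in the cytoskeletal, matrix, adhesion and SRF or YAP lists and, as single genes, in the lists of actin turnover and ERK feedback, and the pluripotency, metabolic and proliferation lists hold none.

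No gene of the naive, general pluripotency and formative lists was called with 17 or 18 libraries. Nanog, a core naive factor, was at 140, 133 and 125 CPM on low AHA and at 119, 146 and 142 CPM on high AHA, and the groups overlapped when replicate 1 was counted. Its difference was 0.12 ± 0.07 (adjusted p = 0.68) with 17 libraries, 0.03 with 18, and -0.023 with Soft80 replicate 2 set aside in place of replicate 1. Esrrb, another naive factor, was at 285 to 302 CPM on low AHA and 293 to 331 CPM on high AHA (0.02 ± 0.05, adjusted p = 0.95; with 18 libraries 0.076, adjusted p = 0.67). Klf4 (0.04 ± 0.07), Pou5f1, which encodes OCT4 (0.04 ± 0.05), and Sox2 (-0.08 ± 0.05) did not pass either, with adjusted p of 0.94, 0.87 and 0.72, and leaving out 1 library put Klf4 between -0.065 and 0.12 and Pou5f1 between -0.0070 and 0.081 (without Soft80 replicates 2 and 3 in both), and Esrrb between -0.0029 (without Soft80 replicate 2) and 0.044 (without Soft16 replicate 1).

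Over 16 naive genes 14 were on the higher side with a median of 0.10 (12 and 0.071 with 18 libraries). None was called by edgeR with 17 or 18 libraries or by DESeq2 (2 had an unadjusted p under 0.05). The lowest p among them belonged to Tbx3, at 100 to 111 CPM on low AHA and 115 to 129 CPM on high AHA (0.24 ± 0.08, adjusted p = 0.23), and to Klf2, at 269 to 278 and 302 to 326 CPM (0.18 ± 0.07, adjusted p = 0.48). Klf2 was called in 1 of 15 alternatives, the fit of only the groups compared with replicate 1 kept (0.21, adjusted p = 0.032). Neither gene's groups overlapped, a pattern that 7.29% of all tested genes showed with 3 high AHA libraries above. Of 7 general pluripotency genes 3, and of 9 formative genes 4, were on the higher side, with medians of -0.0094 and -0.020 (2 and 4, with medians of -0.027 and -0.055, with 18 libraries). Leaving out 1 library moved these medians over 0, from -0.052 (Soft80 replicate 2) to 0.018 (Soft80 replicate 3) and from -0.076 (Soft16 replicate 2) to 0.064 (Soft16 replicate 1). None was called by edgeR with 17 or 18 libraries or by DESeq2, and 0 genes of either list had an unadjusted p under 0.05.

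Fewer genes fell, 5 with 17 libraries. Setd1b encodes a histone H3 lysine 4 methyltransferase (chr5:123142193-123168629, plus strand). It was at 226, 205 and 221 CPM on low AHA and at 193, 181 and 175 CPM on high AHA, and fell by 0.29 on the log2 scale (SE 0.06, adjusted p = 0.007; with 18 libraries -0.25, adjusted p = 0.013). The groups did not overlap, and without Soft16 replicate 1 the adjusted p was 0.15. Tet1, which oxidises 5-methylcytosine (chr10:62804570-62908996, minus strand), was at 1065, 1067 and 1005 CPM on low AHA and at 943, 901 and 944 CPM on high AHA (-0.18 ± 0.04, adjusted p = 0.042; with 18 libraries -0.17, adjusted p = 0.019). It was called in 8 of 15 alternatives. Mllt6, a partner of the H3 lysine 79 methyltransferase, fell by 0.25 on the log2 scale (SE 0.06, adjusted p = 0.018; with 18 libraries -0.21, adjusted p = 0.033), from 248 to 272 CPM to 213 to 238 CPM.

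The largest fall of the 5 was that of Rtl1, an imprinted retrotransposon-derived gene (chr12:109589193-109600330, minus strand). Its low AHA libraries were at 78.3, 91.7 and 77 CPM and its high AHA libraries at 72.7, 57.2 and 62.1 CPM. They did not overlap, and the change was -0.47 ± 0.10 (adjusted p = 0.0044; with 18 libraries -0.37, adjusted p = 0.023). Nedd8, a ubiquitin-like modifier, went from 111 to 119 CPM to 85.6 to 97.3 CPM (-0.33 ± 0.08, adjusted p = 0.042; with 18 libraries -0.33, adjusted p = 0.012), and 14.6% of its exon bases lie opposite another gene's exons. Without Soft80 replicate 2 its adjusted p was 0.63.

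With 18 libraries 15 genes fell (0.113%), of which 10 were not called with 17. By lowest p these included Uhrf1, which guides maintenance DNA methylation, at 360 to 364 CPM on low AHA and at 295, 331 and 302 CPM on high AHA (-0.23, adjusted p = 0.0026; with 17 libraries -0.19 ± 0.05, adjusted p = 0.069, and of these without Soft80 replicate 3 -0.13). Slc38a2, an amino acid transporter, changed by -0.20 (adjusted p = 0.018). The zinc finger gene Zfp82 had at most 0.591 CPM in a high AHA library and 1.45 to 3.58 CPM on low AHA, so its fold change rests on very few counts. Dnmt3l, a co-factor of de novo DNA methylation, and Trim71, an RNA-binding pluripotency regulator, changed by -0.17 (adjusted p = 0.035) and -0.14 (adjusted p = 0.048), and were picked out of those 10 after their values were seen.

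Other genes that rose with and without replicate 1 had varied roles. Ift57, a component of intraflagellar transport in cilia, had the largest change of the 24, 0.70 ± 0.15 (adjusted p = 0.007; with 18 libraries 0.57, adjusted p = 0.035), from 16.4 to 22.7 CPM to 24.7, 34.8 and 31.9 CPM. Asah1, lysosomal acid ceramidase, was at 55.3 to 63.6 CPM on low AHA and 67.8 to 81.2 CPM on high AHA (0.45 ± 0.09, adjusted p = 0.0046; with 18 libraries 0.37, adjusted p = 0.019). Ctsl, the lysosomal protease cathepsin L, was at 136 to 147 CPM and 159 to 181 CPM (0.27 ± 0.07, adjusted p = 0.046; with 18 libraries 0.30, adjusted p = 0.0026), and 26.8% of its exon bases lie opposite another gene. When 1 library was left out, Asah1 was still called in 2 of 5 fits (0.41 to 0.52) and lost its call without Soft16 replicate 1, Soft16 replicate 2 or Soft80 replicate 2 (adjusted p = 0.067, 0.054 and 0.13). Ctsl was still called in 1 of 5 (0.18 to 0.36), the fit without Soft16 replicate 3, and without Soft80 replicate 3 it was at 0.18 (adjusted p = 0.48).

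Igfbp2, an IGF-binding protein, was at 187 to 206 CPM on low AHA and 217, 261 and 227 CPM on high AHA (0.31 ± 0.06, adjusted p = 0.0018; with 18 libraries 0.25, adjusted p = 0.011). Without Soft80 replicate 2 it was at 0.20 (adjusted p = 0.52). Plk2, a polo-like kinase induced by stress and growth factors, was at 179 to 202 CPM and 212 to 232 CPM (0.30 ± 0.06, adjusted p = 0.0028; with 18 libraries 0.26, adjusted p = 0.0049). Neither overlapped. Map4k4, a kinase known to act on focal adhesion turnover, had a change of 0.18 ± 0.04 (adjusted p = 0.026; with 18 libraries 0.17, adjusted p = 0.018), from 557 to 579 CPM to 626 to 659 CPM. Serinc3, a membrane protein, and 1810022K09Rik, of unknown function, rose by 0.38 ± 0.10 and 0.42 ± 0.10 (adjusted p = 0.042 and 0.022), and by 0.35 and 0.36 with 18 libraries (adjusted p = 0.033 and 0.035). Serinc3 was still called in 1 of 5 fits that left out a library, that without Soft80 replicate 3, and without Soft80 replicate 2 it was at 0.17 (adjusted p = 0.86). The call of 1810022K09Rik held in 2 of 5, and without Soft80 replicate 2 its adjusted p was 0.56. Rplp1, a ribosomal stalk protein, was at 1057 to 1123 CPM on low AHA and 1221 to 1274 CPM on high AHA (0.18 ± 0.04, adjusted p = 0.0071; with 18 libraries 0.19, adjusted p = 0.0017), and reads of ribosomal protein genes can be shared with processed pseudogenes. Of 77 ribosomal protein genes, a list added after the values were seen, 35 were on the higher side and Rplp1 was the one call (34 and 2 calls with 18 libraries).

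A further 10 genes rose only with 17 libraries. In 8 of them replicate 1 overlapped the low AHA libraries. The strongest by p were Anxa1, a calcium-dependent membrane-binding annexin (67.2 to 70.9 CPM on low AHA, and 69.2, 93 and 93.6 CPM on high AHA; 0.43 ± 0.09, adjusted p = 0.0034), and Sfn, the epithelial 14-3-3 protein sigma (147 to 151 CPM, and 149, 196 and 173 CPM; 0.32 ± 0.06, adjusted p = 0.0034). With 18 libraries their adjusted p was 0.105 and 0.116. Scel, named after its values were seen, had the largest fitted change, 3.38 ± 0.85 (adjusted p = 0.046; with 18 libraries 2.91, adjusted p = 0.116), but its libraries held only 0 to 0.377 CPM on low AHA and 0.348, 2.24 and 2.17 CPM on high AHA. Among genes called only with 18 libraries, Apoe, which encodes the lipid carrier apolipoprotein E, rose by 0.21 (adjusted p = 0.0026; with 17 libraries 0.16 ± 0.05, adjusted p = 0.13), with 466 to 499 CPM on low AHA and 599, 527 and 561 CPM on high AHA.

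**Figure D4:**
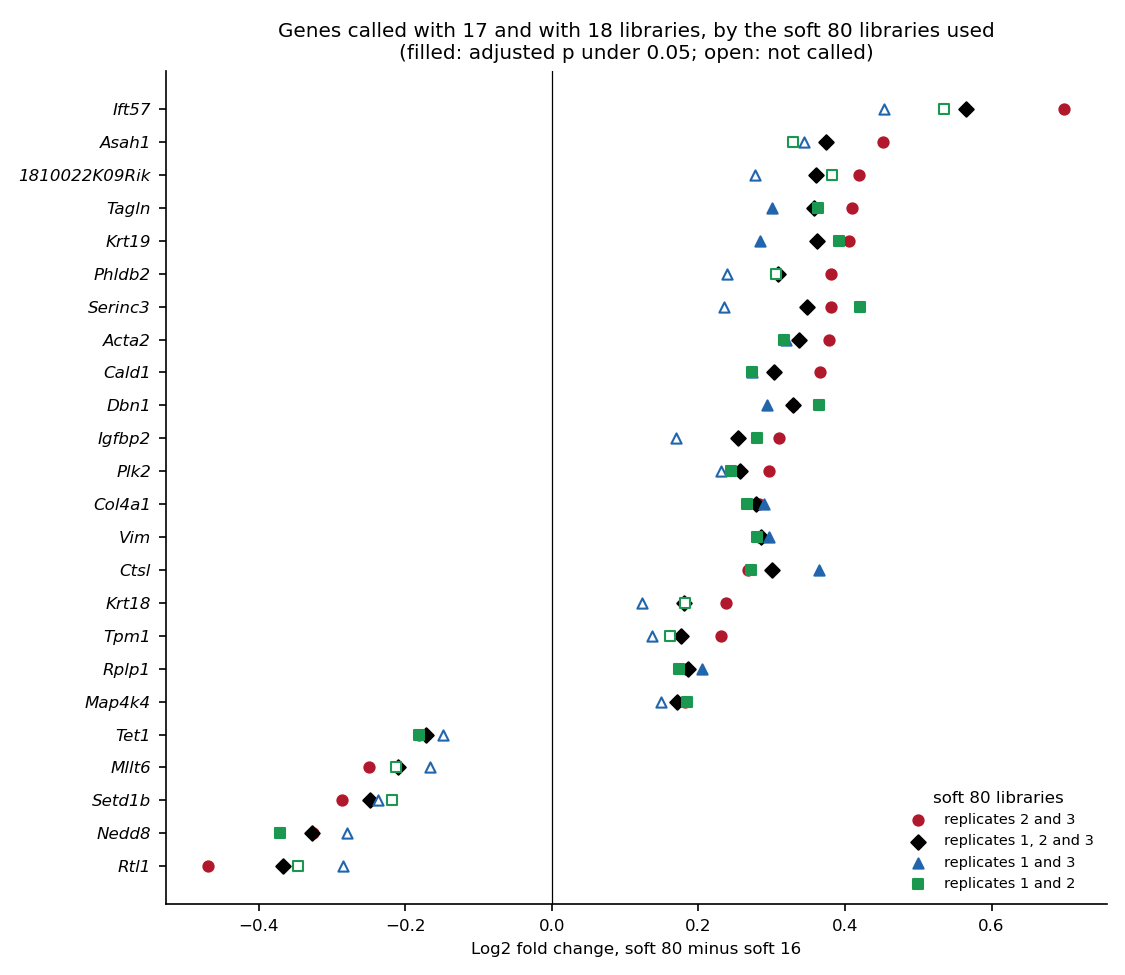
Log2 fold change of the 24 genes called with 17 and with 18 libraries, computed with the Soft80 libraries named in the key, with filled symbols for an adjusted p under 0.05. Every gene keeps its direction under the 4 choices, the fold changes are mostly largest with replicates 2 and 3, and 9 genes are filled throughout.

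Which high AHA libraries entered decided much of the list. With replicates 1 and 3 in place of 2 and 3, 29 genes were called, of which 9 were among the 34, and with replicates 1 and 2, 40 were called, of which 15 were among the 34. The genes called under each of these choices and with all 3 libraries were Acta2, Cald1, Col4a1, Ctsl, Dbn1, Krt19, Rplp1, Tagln and Vim, a total of 9. For 25 of the 34 replicate 1 was nearer to low AHA than both other high AHA libraries, which are the libraries that chose these genes.

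Signalling, stress and metabolic lists gave 1 call with 17 libraries. This was Dusp4, a phosphatase that acts on ERK and is induced by it, at 100 to 112 CPM on low AHA and 111, 137 and 129 CPM on high AHA (0.31 ± 0.07, adjusted p = 0.014; with 18 libraries 0.23, adjusted p = 0.12). The other 17 ERK feedback genes were not called, with Epha2 at -0.12 ± 0.06 and Etv4 at -0.19 ± 0.10 (-0.12 without Soft80 replicate 3), and 9 of the 18 were on the higher side (median -0.0014; 8 and -0.034 with 18 libraries). Immediate early genes were also evenly split, 9 of 18, with a median of 0.014 (9 and 0.0098 with 18) and no call by edgeR with 17 or 18 libraries or by DESeq2 (2 had an unadjusted p under 0.05). Leaving out 1 library put the ERK median between -0.062 (Soft16 replicate 3) and 0.0016 (Soft16 replicate 1) and the immediate early median between -0.020 (Soft16 replicate 3) and 0.045 (Soft16 replicate 2). The lowest p values of immediate early genes were for Zfp36, at 23 to 24.7 CPM on low AHA and 16 to 16.9 CPM on high AHA (-0.54 ± 0.17, adjusted p = 0.22), and Fosb (-0.94 ± 0.33, adjusted p = 0.29; -1.67 without Soft80 replicate 2 and -0.50 without Soft80 replicate 3).

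Nodal, a TGF-beta family ligand, was at -0.24 ± 0.11 (adjusted p = 0.54), and none of 14 TGF-beta and BMP response genes was called by edgeR with 17 or 18 libraries or by DESeq2 (median 0.099, and 0.067 with 18 libraries; 1 had an unadjusted p under 0.05). Their median was 0.039 without Soft16 replicate 3 and -0.050 without Soft80 replicate 2. No gene of the ATF4 stress (12 genes, median 0.17), heat shock (12, median 0.035), p53 (11, median 0.077), glycolysis and hypoxia (13, median -0.040), cholesterol (15, median 0.018) or proliferation (12, median -0.019) lists passed with 17 libraries in edgeR, where 3, 4, 2, 2, 2 and 2 genes of these lists had an unadjusted p under 0.05. DESeq2 called 1 of them, Ccng1. The 6 medians with 18 libraries were 0.18, 0.020, 0.084, -0.055, 0.024 and -0.035. Leaving out 1 library turned the sign of the glycolysis median (0.015 without Soft80 replicate 2) and of the cholesterol median (-0.038 without Soft16 replicate 2, -0.0081 without Soft80 replicate 2). Without Soft80 replicate 3 the ATF4, heat shock, p53 and glycolysis medians were 0.087, 0.054, 0.051 and -0.096, and the cholesterol median was 0.056. Without Soft16 replicate 3 the heat shock, glycolysis, cholesterol and proliferation medians were 0.012, -0.0076, 0.062 and -0.0072. Without Soft16 replicate 2 the p53 and proliferation medians were 0.12 and -0.032, and without Soft16 replicate 1 the glycolysis median was -0.016. With 18, the p53 target Ccng1 (0.17, adjusted p = 0.03) and the sterol synthesis gene Msmo1 (0.36, adjusted p = 0.048) did. Of 21 junction genes 11 were on the higher side, with a median of 0.020, and 9 with a median of -0.014 with 18 libraries. The sign of that median changed in 5 of 15 alternatives, with -0.0029 without Soft80 replicate 2 and 0.044 without Soft80 replicate 3. No junction gene was called by edgeR with 17 or 18 libraries or by DESeq2. The 1 with an unadjusted p under 0.05 was Dsp, the desmosomal protein desmoplakin (0.15 ± 0.05, adjusted p = 0.24), which was called without Soft16 replicate 2 (0.22, adjusted p = 0.045).

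Markers of other cell types were mostly low. Of 8 mesendoderm markers the 6 that passed the filter summed to 24.3 to 31.7 CPM on low AHA and 19.5 to 32.7 CPM on high AHA, and of 9 fibroblast markers, those of feeder cells, 4 passed and summed to 14.6 to 22.1 and 12.1 to 18.8 CPM. Dcn, Lum and Fap of the fibroblast list, Cer1 and Neurog2 had a median of 0 counts over the 6 libraries. The 2 neuroectoderm markers that passed, of 6, summed to 15.3 to 18.7 and 18.1 to 22.4 CPM, and 6 of 7 trophectoderm markers, most of it Tfap2c, to 200 to 220 and 212 to 224 CPM. For primitive endoderm 10 of 11 summed to 393 to 444 and 408 to 447 CPM, most of it from Lrp2, with Gata6 at 2.64 to 4.47 CPM. The low and high AHA ranges overlapped for each of these lists, and no marker was called by edgeR with 17 or 18 libraries or by DESeq2, with Hand1 of the trophectoderm list (0.37 ± 0.13; 0.19 without Soft80 replicate 3) and Pdgfrb of the fibroblast list (-0.95 ± 0.36) at an unadjusted p under 0.05. The embryonic stem cell markers Pou5f1, Sox2, Nanog and Esrrb were expressed in every library, at 515 to 575, 319 to 352, 119 to 146 and 285 to 331 CPM.

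Mid AHA, which the rule did not use, was set beside the low and high levels without a test, because the low and high libraries chose the genes. The mid AHA mean lay between the low and the high mean for 28 of the 34 called genes and beyond the low mean for 6, and for the median gene it stood at 30.7% of the way from low to high. Vim was near the middle (46.3%), at 523, 491 and 533 CPM. Cald1 at mid AHA was still close to low AHA (3.44%), at 489, 533 and 502 CPM, and Tagln and Acta2 were below the low mean, at 126 to 141 CPM and 85.5 to 91.5 CPM. The mid AHA libraries of these 3 genes did not stand above the low AHA libraries, whereas those of Asah1 (68.2 to 79.3 CPM) all exceeded the low AHA ones.

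On stiff gels the same step in AHA called 1 gene, Map1b (0.00744% of 13438), so the difference between the gels was tested directly. For 6 genes (0.0446%) the effect of AHA on soft gels exceeded that on stiff gels, and none showed the reverse by edgeR with 17 or 18 libraries or by DESeq2, which called 3. Without adjustment 909 genes had a p under 0.05, of which 388 had the smaller effect on soft gels. Tagln had the lowest p, with stiff gel libraries at 232, 260 and 219 CPM on low AHA and 209, 227 and 218 CPM on high AHA. Its effect was 0.41 on soft and -0.12 ± 0.06 on stiff gels, a difference of 0.53 ± 0.09 (adjusted p = 0.00011) that was called in all 21 alternatives.

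For Tpm1 the stiff libraries were at 1072 to 1149 CPM on low and 1026 to 1073 CPM on high AHA, and the difference was 0.31 ± 0.06 (adjusted p = 0.00036). Cald1 was at 708 to 740 CPM on stiff low AHA gels and 694 to 725 CPM on stiff high AHA gels, which gave -0.02 ± 0.04 there and a difference of 0.38 ± 0.06 (adjusted p = 0.00026). With Soft80 replicate 1 kept the difference for Cald1 was 0.32 and was not called (adjusted p = 0.083), while those of Tagln and Tpm1 were. In the remaining calls, named after their values were seen, Phldb2 (0.47 ± 0.11), Myof (0.48 ± 0.11) and Map1b (0.30 ± 0.07) each had an adjusted p of 0.042. Map1b, a microtubule-associated protein, was called for its fall on stiff gels (-0.22 ± 0.04, adjusted p = 0.034) and not on soft gels (0.08 ± 0.05, adjusted p = 0.69). With 18 libraries 6 genes were called too (0.0454%), of which Tagln, Tpm1, Myof and Map1b were shared and Ptpn14 and Vim were not. With 17 libraries as the start, the number called was 3 without Soft16 replicate 1 or Stiff80 replicate 2, 13 without Soft16 replicate 2 and 11 without Stiff80 replicate 1.

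**Figure D5:**
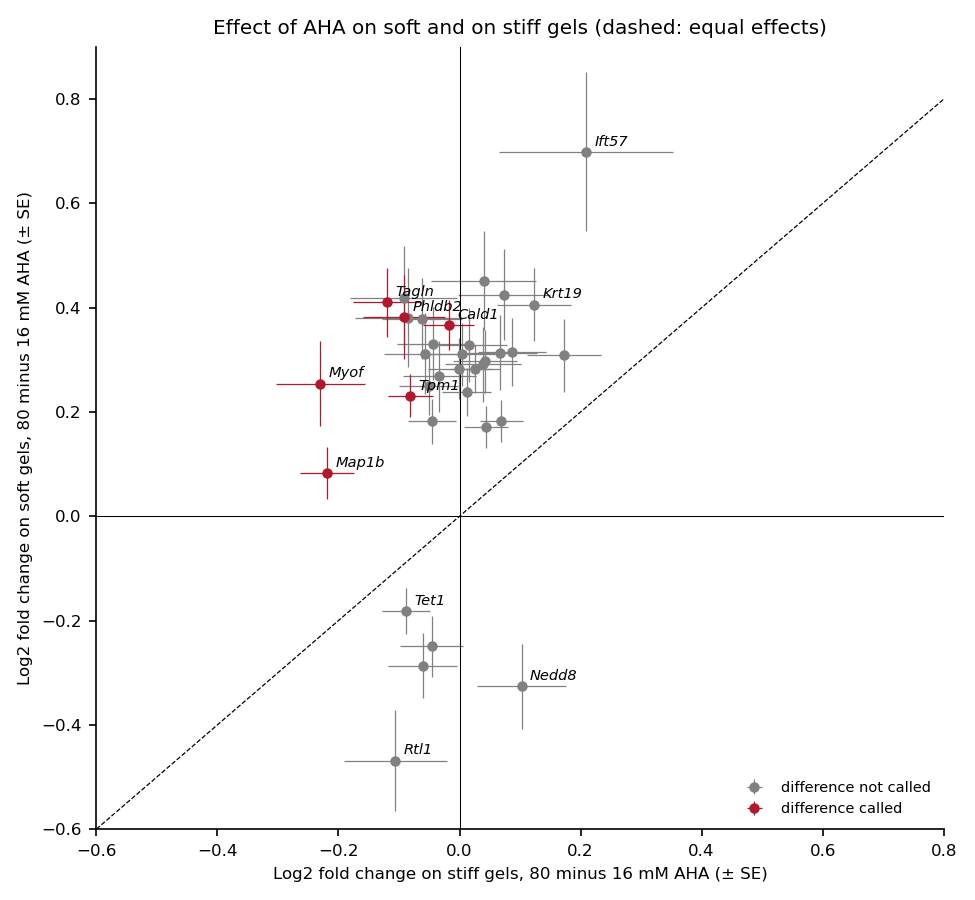
Log2 fold change of high minus low AHA on soft gels against that on stiff gels, ± SE, for the genes called on soft gels with 17 libraries (Scel, off the scale, is left out) together with Map1b and Myof. The 6 genes in red, whose effects differ by test, lie above the dashed line of equal effects, and most points lie near 0 on the stiff axis.

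Over the 29 genes that rose on soft gels, the median effect of the same step on stiff gels was 0.0044, beside 0.31 on soft gels, for which the genes were chosen. Of all 34 called genes, 19 had the same sign on stiff gels and 15 the opposite sign, and none was called there by edgeR, with 812 of all tested genes at an unadjusted p under 0.05. For Vim the effects were 0.28 on soft and 0.03 ± 0.04 on stiff gels, and the difference of 0.26 ± 0.06 was called with 18 libraries but not with 17 (adjusted p = 0.076). Krt19 had 0.41 on soft and 0.12 ± 0.06 on stiff gels, and its difference of 0.28 ± 0.09 was not called (adjusted p = 0.39). Acta2, at 0.38 on soft and -0.06 ± 0.07 on stiff gels, just missed (difference 0.44 ± 0.10, adjusted p = 0.051). The median of the tropomyosin, calponin and caldesmon list was -0.034 on stiff gels, where 2 of its 13 genes were on the higher side.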

How the data were processed

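The samples were the 18 libraries of E14 mESCs, 3 per gel, and the labels gave each library its gel. Per the labels and the study's methods, the authors prepared libraries with a pico-input total RNA kit, trimmed reads with Trim Galore 0.4.4, aligned them with GSNAP to mm10 and used HTSeq to count reads over Ensembl genes. These raw counts were deposited without normalisation, and the strand setting was not given in the sources used here. HTSeq's summary lines (61.7 to 63.0% of each column in the 6 libraries compared) entered neither library sizes nor tests. Gene names came from GENCODE M21 (GRCm38), which named 45143 of 46078 genes.

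After filterByExpr with a minimum count of 10, protein-coding genes were normalised by TMM, and edgeR 4.0.16 (R 4.3.3; robust quasi-likelihood, 1 coefficient per group, 17 libraries) tested 13438 of them. P-values were adjusted by Benjamini-Hochberg over all tested genes and a gene was called under 0.05. SEs came from the F statistic. CPM were scaled over all 18 libraries. Replicates differed by more than counting noise (chi-square per degree of freedom 1.82 to 3.07), and each library counted as 1 sample. The scripts were tested on simulated data.

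Members and gene lists were chosen with earlier results of these data known, so lists are described by counts and medians with no test. Genes named were those called with 17 and 18 libraries, the 5 lowest p called with only one of these, the 5 lowest p that fell, up to 4 lowest p of a list, Nanog, Esrrb, Klf4, Pou5f1 and Sox2, and the 3 lowest p of the soft and stiff difference. Others are said to be named after their values were seen. The result of 1 list is not reported here. Alternatives were the choice of Soft80 libraries, RLE scaling, DESeq2 1.42.0, filters of at least 2 counts or 5 CPM, all biotypes, only the groups compared, and each library left out.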

Additional observations from a re-analysis of the deposited data

Results flagged for a closer look

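The effect of AHA differed between soft and stiff gels by a test of the difference itself for 6 genes. On the log2 scale the difference, soft minus stiff, was 0.53 for Tagln, 0.38 for Cald1, 0.31 for Tpm1, 0.30 for Map1b, 0.47 for Phldb2 and 0.48 for Myof. Over 21 alternatives the difference was called in 21 for Tagln, 19 for Tpm1, 18 for Cald1, 13 for Myof, 12 for Map1b and 11 for Phldb2, and none changed sign.

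A signal outside the fit was the ERCC share of 1.37% in Soft80 replicate 1. When genes of every biotype were tested, 2 that are not protein-coding were called: the processed pseudogene Gm20900 rose by 0.23 (adjusted p = 0.0092), with 1733 to 1978 counts on low AHA and 2186 to 2566 on high AHA, and Gm37899, a locus that the annotation marks as not yet verified by experiment, changed by -0.52 (adjusted p = 0.025). The counts of Gm37899 were 293 to 367 on low AHA and 221 to 308 on high AHA.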

How the results depend on the processing

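The number of genes called on soft gels stayed within 1.5 times of 34 in 12 of 15 alternatives (28 to 45), and ranged from 2 to 69 when 1 library was left out. DESeq2 called 37, of which 27 were among the 34, and RLE scaling called the same 34. The number called for the difference between gels was 6, against 2 with Soft80 replicate 3 set aside in place of replicate 1, 3 with DESeq2 and 19 with a filter of at least 2 counts, and ranged from 3 to 13 when 1 library was left out (Soft16 replicates 1 and 2; also 11 without Stiff80 replicate 1 and 3 without Stiff80 replicate 2). The cause was not tested. Fits that left Soft80 with 1 library assume that it varies like the other groups. Signs changed for Nanog (-0.023) and Pou5f1 (-0.017) with Soft80 replicate 2 set aside in place of replicate 1, for Pou5f1 (-0.0070), Esrrb (-0.0029) and Klf4 (-0.065) without Soft80 replicate 2, and for Klf4 without Soft16 replicate 3 (-0.017). Leaving out 1 library gave -0.0070 to 0.081 for Pou5f1, -0.0029 to 0.044 for Esrrb and -0.065 to 0.12 for Klf4. Of 28 lists, 14 kept the sign of their median under every alternative. Among them were the tropomyosin, intermediate filament, matrix, SRF and YAP lists, and also the naive, neuroectoderm, ATF4 stress, p53 and proliferation lists. No paired analysis was possible because the labels give no replicate numbers shared between groups.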
